A study of Homo sapiens with 6 samples.

Results

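The genes described here encode acute phase plasma proteins and the heavy chains of the inter-alpha-trypsin inhibitor family. The list of 10 genes was given by symbol (HP, HPX, ORM1, SAA1, LBP, CP, ITIH1, ITIH2, ITIH3 and ITIH4), and 9 of these 10 were among the 19021 rows of the deposited table. No row carried the symbol ITIH3, which was not analysed here. Of the 9 genes, 7 had a mean of at least 1 FPKM (fragments scaled by gene length and by library size) over the 6 libraries and were tested. Each of these 7 was also at 1 FPKM or more in every single library, so none entered through its DMSO values alone. ITIH1 and ITIH4 lay under this limit and are described by their reads.

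Expression was measured by RNA sequencing in Huh7, an established line of human hepatocellular carcinoma cells labelled as wild type. Cells in 6-well plates received either DMSO, the solvent control, or carfilzomib for 24 h, with 3 libraries in each group. Carfilzomib is a proteasome inhibitor that blocks the catalytic subunit PSMB5, and the labels state no dose. The libraries held 38071033 to 39335509 reads over all genes of the deposited table, recovered from the ratios between FPKM values. Whether replicates were grown as separate cultures is not stated in the labels, and p-values therefore reflect library-to-library spread that may be partly or wholly technical.

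The acute phase response is the change in liver secretion that follows injury or infection. It is driven mainly by interleukin-6, acting through the receptor chain gp130 and the transcription factor STAT3, and by interleukin-1, acting through NF-kB and C/EBP factors. Hepatocytes raise the output of scavengers such as haptoglobin and hemopexin, of lipid and lipopolysaccharide carriers such as serum amyloid A and LBP, and of protease inhibitors, while albumin and transthyretin decline. The ITIH genes encode heavy chains that are joined to bikunin, the protease inhibitor made from AMBP, through a chondroitin sulfate chain. They are then passed to hyaluronan in the extracellular matrix. ITIH4 is the exception among the 4 listed here, since it is not joined to bikunin.

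The tissue label was checked against marker genes. All 10 hepatocyte markers had a row, and their summed level was 11160 to 11461 FPKM with DMSO and 6569 to 6640 FPKM with carfilzomib. Of these 10 markers 8 were called lower, among them AFP and ALB, which made up most of the sum with DMSO. ALB, APOA1, TTR, TF, SERPINA1 and HNF4A are counted again in lists further below, so those lists are not independent of the markers. The keratin gene KRT18 was higher (1006 ± 28.4 and 1550.1 ± 35.6 FPKM, SD, n = 3, log2 difference 0.62), and KRT8 was not called (1326 ± 41.6 and 1347 ± 18.7 FPKM). Of 6 immune cell markers 3 had a row, with sums of 344 to 357 and 203 to 231 FPKM, of which LYZ was lower (319 and 172 FPKM on average) and CD68 higher (33.2 and 46.9 FPKM), while the defining marker PTPRC reached at most 0.0196 FPKM. Endothelial markers (3 of 4 with a row) summed to 3.74 to 4.33 and 2.38 to 2.97 FPKM, and stellate cell or fibroblast markers (5 of 5) to 18.9 to 19.2 and 14.9 to 15.0 FPKM. None (0) of 4 erythroid markers had a row.

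Promoter sequences are shown for the genes of the list that have both values and an entry in the RefSeq promoter table, because 4 genes with lower levels after carfilzomib can then be set side by side. HPX, ORM1, ITIH1 and ITIH4 were the 4 of the 9 genes with an entry, and ITIH1 had 3 entries, of which the one farthest downstream is printed (the one farthest upstream held no match). Each run covers the 250 bases before the annotated start, read 5′ to 3′ on the gene's strand in build GRCh38.p14. Capitals mark matches on either strand to the motifs TTNNGNAA (C/EBP), TTCNNNGAA (STAT3), CTGGGAA (the core of an interleukin-6 response element), TGTTTNC (HNF3) and TATAAA (the TATA box). The windows are chr11:6440988-6441237 on the minus strand for HPX, chr9:114322848-114323097 on the plus strand for ORM1, chr3:52779676-52779925 on the plus strand for ITIH1 and chr3:52830673-52830922 on the minus strand for ITIH4.
HPX: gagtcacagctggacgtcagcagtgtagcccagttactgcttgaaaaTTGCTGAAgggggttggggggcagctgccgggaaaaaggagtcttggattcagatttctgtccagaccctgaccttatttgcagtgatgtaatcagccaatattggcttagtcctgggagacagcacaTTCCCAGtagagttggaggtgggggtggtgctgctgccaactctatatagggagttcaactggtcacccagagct
ORM1: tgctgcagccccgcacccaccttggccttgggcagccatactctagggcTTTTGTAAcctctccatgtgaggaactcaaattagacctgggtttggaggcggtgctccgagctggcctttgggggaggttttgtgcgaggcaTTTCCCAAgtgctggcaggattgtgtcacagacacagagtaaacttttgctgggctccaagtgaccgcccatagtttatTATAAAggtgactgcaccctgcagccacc
ITIH1: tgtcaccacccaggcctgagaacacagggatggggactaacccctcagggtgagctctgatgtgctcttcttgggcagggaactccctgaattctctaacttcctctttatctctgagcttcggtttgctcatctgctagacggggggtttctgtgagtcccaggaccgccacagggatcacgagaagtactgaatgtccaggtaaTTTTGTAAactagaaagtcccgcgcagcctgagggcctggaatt
ITIH4: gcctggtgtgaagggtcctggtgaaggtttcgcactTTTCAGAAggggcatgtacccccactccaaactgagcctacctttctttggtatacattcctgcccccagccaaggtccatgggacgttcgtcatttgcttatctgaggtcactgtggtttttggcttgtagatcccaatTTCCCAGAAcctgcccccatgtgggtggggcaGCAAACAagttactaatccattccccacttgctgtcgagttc

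All 4 printed windows held at least 1 C/EBP match, a motif present in 33.2% of the 35116 promoter entries of the same length. For ITIH1 this depends on the entry printed, since the one farthest upstream held no match. ORM1 had a pair of them, at positions -201 to -194 and -108 to -101, and a TATA box at -29 to -24 (10.7% of entries). HPX had the interleukin-6 core on the reverse strand at -75 to -69 (9.15% of entries). In ITIH4 the STAT3 match at -74 to -66 (6.57% of entries) overlapped the interleukin-6 core at -74 to -68, and an HNF3 match lay at -42 to -36 (15.5% of entries). These are matches of letters and not measured binding.

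All 7 tested genes were lower with carfilzomib, 5 of them at least 2-fold, and none (0) was higher. Haptoglobin and LBP fell most, to 19.8% and 20.7% of their DMSO means, and SAA1 least, to 87.8%. Across the whole table, limma on log2(FPKM + 1) called 81.6% of the 11153 tested genes at an adjusted p under 0.05, with 44.9% lower, 36.7% higher and 7.84% at least 2-fold lower. In 6 of the 7 every carfilzomib library lay below every DMSO library, as in 45.4% of all tested genes. The median log2 difference was -1.67 over the 7 genes and -0.07 over all tested genes. The 9 genes together held 0.0999 ± 0.00146% of reads with DMSO and 0.0331 ± 0.00111% with carfilzomib (SD, n = 3). In these bulk libraries, fewer cells that make a transcript and less of it per cell cannot be told apart.

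**Figure D1:**
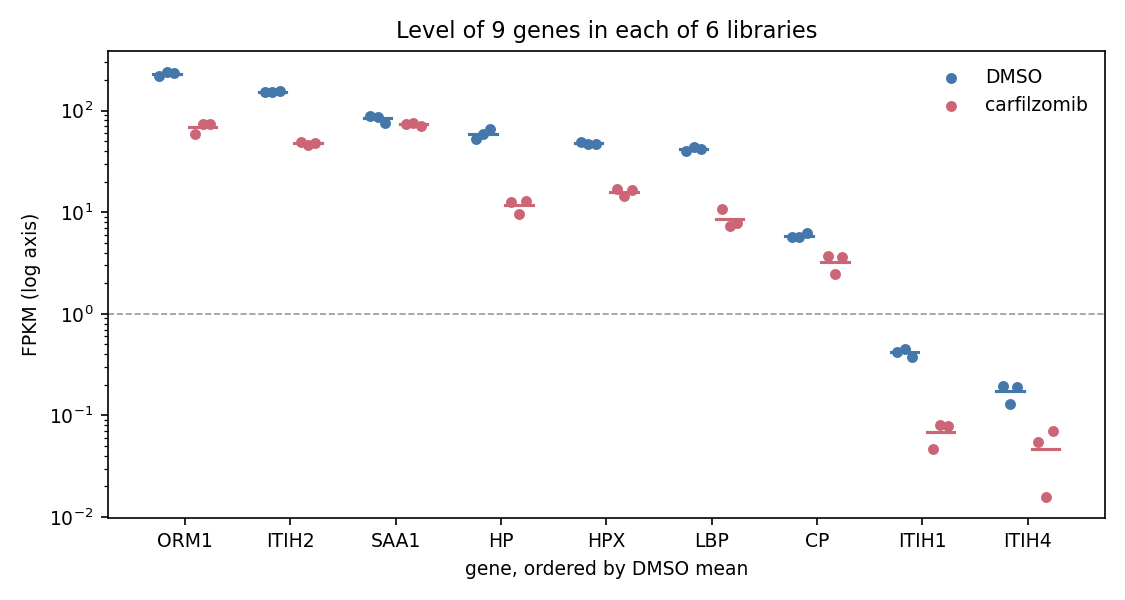
FPKM (log axis) of the 9 genes in the 3 DMSO and 3 carfilzomib libraries, ordered by DMSO mean; points are libraries, short lines are group means and the dashed line is the limit of 1 FPKM for testing. SAA1 is the tested gene whose groups overlap, and ITIH1 and ITIH4 lie under the limit.

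The scavengers of hemoglobin and heme were both lower. HP encodes haptoglobin, which binds free hemoglobin, and had 52.6, 58.4 and 66.0 FPKM in DMSO replicates 1 to 3 against 12.7, 9.68 and 12.8 FPKM in carfilzomib replicates 1 to 3. The groups were far apart, and the DMSO libraries differed more among themselves, relative to their mean, than those of the other 6 tested genes. The log2 difference was -2.24 (SE 0.103, 95% interval -2.48 to -2.01, adjusted p = 2.01e-08 by limma), and 42 of the 11153 tested genes (0.377%) had a lower one. HPX encodes hemopexin, the heme carrier, and had 48.6, 46.6 and 47.3 FPKM with DMSO and 17.1, 14.4 and 16.5 FPKM with carfilzomib. Its 3 DMSO libraries lay close together, and its log2 difference was -1.52 (SE 0.0557, adjusted p = 4.37e-09 by limma). HP made up 55.3 ± 3.16% of the summed FPKM of HP and HPX with DMSO and 42.1 ± 1.75% with carfilzomib (SD, n = 3). The log2 ratio of HP to HPX was lower in all 3 carfilzomib libraries, with a mean difference of -0.77 (exact two-sided permutation p = 0.10), and 0.10 is the smallest p that 3 against 3 libraries allow. In all, 7 ratios between genes were compared, and after adjustment over them this exact permutation p became 0.14 for each of the 5 ratios that had it, so none (0) passed.

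Haptoglobin-related protein, encoded by HPR next to HP with no annotated gene between them in RefSeq order, was lower as well. HPR had 10.1, 10.1 and 9.32 FPKM with DMSO and 0.954, 0.872 and 1.14 FPKM with carfilzomib, which is 10.1% of the DMSO mean. All 3 treated libraries were low, with a mean of 0.989 FPKM, so HPR passed the limit of 1 FPKM through its DMSO values. The log2 difference was -2.45 (SE 0.0657, adjusted p = 6.11e-10 by limma). At these low levels the value depends on the pseudocount: limma-voom on recovered reads gave -3.31 for HPR and -2.34 for HP, and a pseudocount of 5 gave -1.31 and -1.94, which puts the 2 genes in the opposite order. HPR took 14.4 ± 1.88% of the summed FPKM of the pair with DMSO and 7.83 ± 0.706% with carfilzomib (SD, n = 3), with no overlap between groups (exact permutation p = 0.10). The sequences of HP and HPR are close, and the sources used here do not say how reads that match both were counted.

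ORM1 had the highest level of the 9 genes with DMSO. It encodes alpha-1-acid glycoprotein, a lipocalin of plasma that binds basic and neutral drugs. Its values were 219, 240 and 233 FPKM with DMSO and 58.7, 74.5 and 73.4 FPKM with carfilzomib. Carfilzomib replicate 1 was the lowest of the treated libraries for this gene, and the groups did not overlap. The log2 difference was -1.74 (SE 0.0796, 95% interval -1.92 to -1.56, adjusted p = 1.94e-08 by limma). ORM2, its neighbour and near copy, had 84.9, 56.2 and 61.2 FPKM with DMSO and 18.1, 20.01 and 16.1 FPKM with carfilzomib. DMSO replicate 1 stood above the other DMSO libraries for ORM2 and below them for ORM1. The log2 difference of ORM2 was -1.83 (SE 0.132, adjusted p = 5.79e-07 by limma). The share of ORM2 in the pair was 22.6 ± 4.72% with DMSO and 20.9 ± 2.84% with carfilzomib (SD, n = 3), with overlapping groups (exact permutation p = 0.70 for the log2 ratio), and reads may be split unevenly between the copies.

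SAA1 was the member that moved least. It encodes serum amyloid A, an apolipoprotein of high-density lipoprotein that is among the most strongly induced acute phase proteins. SAA1 had 89.6, 86.7 and 75.1 FPKM with DMSO and 74.0, 75.9 and 70.8 FPKM with carfilzomib. The lowest DMSO library, replicate 3, lay below carfilzomib replicate 2, so the groups overlapped. The log2 difference of -0.18 (SE 0.0593, 95% interval -0.32 to -0.05) had an adjusted p = 0.0163 by limma, and 41.9% of tested genes had a lower difference. Median-of-ratios scaling ended this call (-0.11, adjusted p = 0.142 by limma). So did leaving out DMSO replicate 1 (-0.13, 0.0545), DMSO replicate 2 (-0.16, 0.0584) or carfilzomib replicate 3 (-0.16, 0.0609), where the second value is again limma's adjusted p. Across 17 alternatives that value lay between 2.68e-04 and 0.142.

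SAA2, the closest relative of SAA1, went the other way. SAA2 had 13.2, 13.2 and 12.2 FPKM with DMSO and 20.5, 17.99 and 17.4 FPKM with carfilzomib. Every treated library was above every DMSO library, and the log2 difference was 0.50 (SE 0.0618, adjusted p = 3.38e-05 by limma). The share of SAA2 in the summed FPKM of the pair was higher in all 3 treated libraries, at 20.2 ± 1.36% against 13.4 ± 0.537% (SD, n = 3; exact permutation p = 0.10 for the log2 ratio). FPKM values of the pair rest on unequal gene lengths, since the length implied by reads and FPKM was 2390.3 bases for SAA2 and 670.4 bases for SAA1. In recovered reads, SAA2 had 1234, 1242 and 1144 with DMSO and 1910, 1637 and 1610 with carfilzomib, and SAA1 had 2340, 2284 and 1981 against 1929, 1937 and 1841. Reads that match both genes could be split between them by the authors' counting. SAA4, a constitutive member of the family, had 13, 30 and 35 reads with DMSO and 8, 16 and 8 with carfilzomib. Its groups overlapped, and in a fit without the filter on low values it was not called (adjusted p = 0.0516 by limma).

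**Figure D2:**
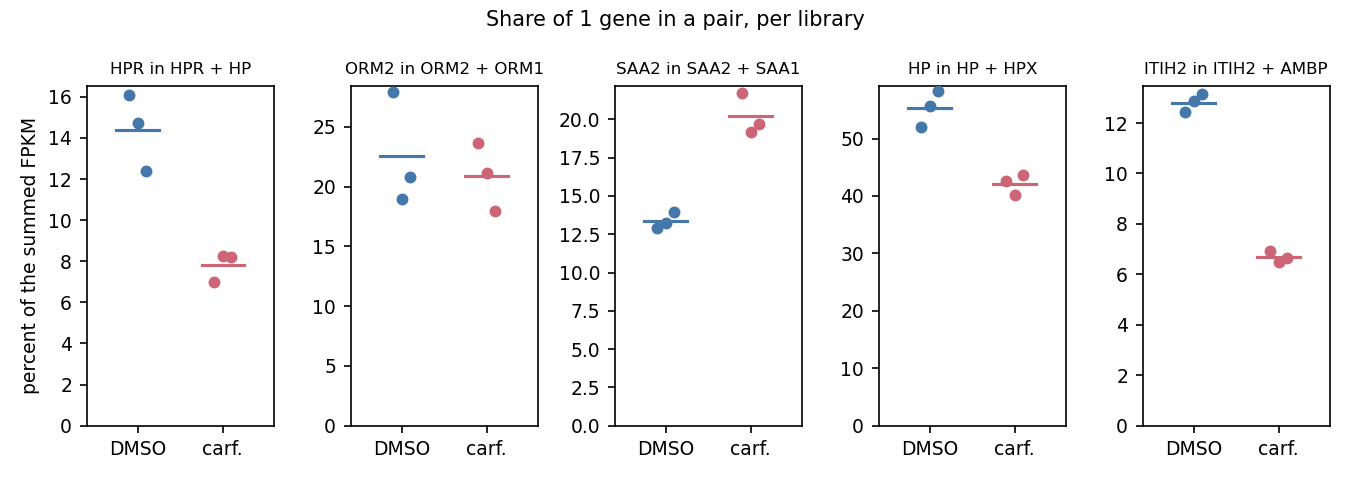
Percent of the summed FPKM of a pair taken by the gene named first, in each of 3 DMSO and 3 carfilzomib (carf.) libraries, with group means as lines. SAA2 averages 13.4% of its pair with DMSO and 20.2% with carfilzomib, and HPR 14.4% and 7.83%, while the groups overlap for ORM2.

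LBP and CP act in other branches of the response. LBP encodes the lipopolysaccharide-binding protein, which hands bacterial lipopolysaccharide to CD14, and had 39.8, 43.8 and 42.0 FPKM with DMSO and 10.7, 7.39 and 7.85 FPKM with carfilzomib. Carfilzomib replicate 1 was the highest of the treated libraries and still far under the DMSO libraries. The log2 difference was -2.17 (SE 0.106, adjusted p = 3.03e-08 by limma), close to that of HP. CP encodes ceruloplasmin, the copper-carrying ferroxidase of plasma, and had 5.68, 5.69 and 6.29 FPKM with DMSO and 3.69, 2.48 and 3.61 FPKM with carfilzomib. All 3 treated libraries were below the DMSO libraries, with replicate 2 the lowest. The log2 difference was -0.71 (SE 0.106, 95% interval -0.94 to -0.47, adjusted p = 1.39e-04 by limma), and because the level is low the pseudocount matters, with -0.87 by limma-voom on recovered reads and -0.40 at a pseudocount of 5. Relatives of LBP and CP are given for comparison. PLTP, a phospholipid transfer protein of the LBP family, rose from 26.0 ± 0.741 to 32.6 ± 1.05 FPKM (log2 difference 0.32, adjusted p = 2.16e-05 by limma), and HEPH, the membrane-bound ferroxidase related to CP, had 4.85 ± 0.239 and 4.39 ± 0.0840 FPKM (SD, n = 3; adjusted p = 0.0587 by limma). CETP stood at 0.0208 and 0.0180 FPKM on average, and BPI and HEPHL1 had no row.

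Among the ITIH genes, ITIH2 was the heavy chain expressed at a substantial level. ITIH2 had 154, 152 and 155 FPKM with DMSO and 49.3, 45.7 and 48.1 FPKM with carfilzomib. The libraries of each group lay close together, and the treated mean was 31.0% of the DMSO mean. Its log2 difference of -1.67 had the smallest error on the list (SE 0.0332, 95% interval -1.74 to -1.59, adjusted p = 1.03e-10 by limma). ITIH1 had 0.424, 0.452 and 0.373 FPKM with DMSO and 0.0472, 0.0803 and 0.0789 FPKM with carfilzomib. At the smallest whole numbers that give these ratios, this is 27, 29 and 24 reads against 3, 5 and 5, a ratio of 0.165 (95% exact counting interval 0.0843 to 0.299). The true reads may be a common multiple of these numbers, which would narrow the interval. ITIH4 had 25, 17 and 25 reads with DMSO and 7, 2 and 9 with carfilzomib, a ratio of 0.273 (95% exact counting interval 0.153 to 0.465). These intervals cover counting error alone. For both genes each treated library was below each DMSO library, and in a fit without the filter on low values both were called lower (adjusted p = 5.15e-05 for ITIH1 and adjusted p = 0.00574 for ITIH4 by limma). ITIH5, which belongs to the same family, had 10 and 16 reads over the groups, and ITIH6 had no row.

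AMBP, which encodes the bikunin that the heavy chains are joined to, was also lower. It had 1047 ± 34.6 FPKM with DMSO and 665 ± 9.36 FPKM with carfilzomib (SD, n = 3; log2 difference -0.65, SE 0.0312, adjusted p = 2.57e-08 by limma). ITIH2 made up 12.4%, 12.9% and 13.1% of the summed FPKM of ITIH2 and AMBP in the DMSO libraries and 6.92%, 6.51% and 6.65% in the carfilzomib libraries. The log2 ratio of ITIH2 to AMBP differed by -1.03 without overlap (exact two-sided permutation p = 0.10). The log2 ratio of ITIH1 to ITIH2 had a mean difference of -0.94 (exact permutation p = 0.10), and that of ITIH4 to ITIH2 did not separate the groups (difference -0.42, exact permutation p = 0.80).

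**Figure D3:**
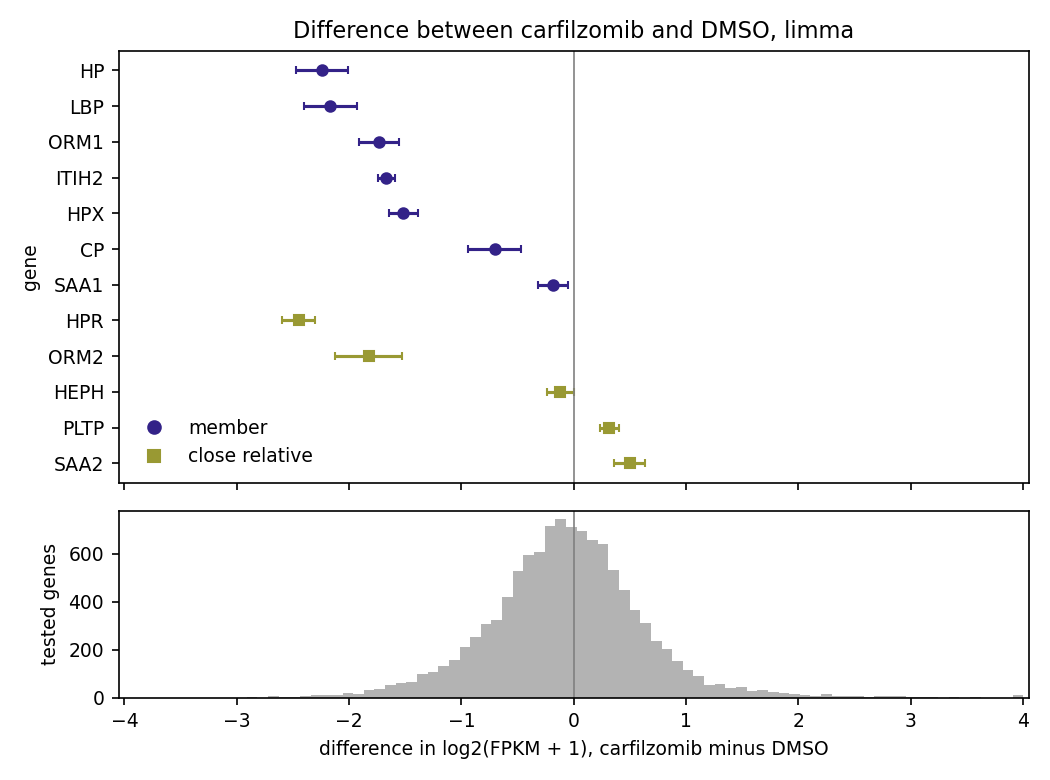
Top, log2(FPKM + 1) difference between carfilzomib and DMSO for the 7 tested genes (circles) and 5 tested close relatives (squares), with 95% intervals by limma; bottom, histogram of the same difference over 11153 tested genes, with values beyond the axis in the end bins. HP, LBP and HPR lie in the left tail, SAA1 near the centre and SAA2 to the right of 0.

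The order of the levels changed with treatment. With DMSO it was ORM1, ITIH2, SAA1, HP, HPX, LBP, CP, ITIH1 and ITIH4, and the libraries of neighbours in this order did not overlap. With carfilzomib SAA1 came first at 73.6 ± 2.56 FPKM, ahead of ORM1 at 68.9 ± 8.85 FPKM (SD, n = 3), although the ranges of this pair overlapped. HPX now stood above HP without overlap. HP and LBP overlapped, as did ITIH1 and ITIH4. Libraries of a group were not alike for all genes: 5 of the 7 tested genes were lowest in carfilzomib replicate 2 among the treated libraries, as were 34.7% of all tested genes, and 4 of the 7 were lowest in DMSO replicate 1 among the controls, as were 41.9% of all tested genes. Without carfilzomib replicate 2 the log2 differences were -2.12 for HP, -2.07 for LBP and -0.57 for CP.

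The listed genes are spread over chromosomes 3, 9, 10, 11, 16 and 20, and several sit beside relatives. In the RefSeq annotation of GRCh38.p14, no annotated gene (0) lies between HP and HPR on chromosome 16, between ORM1 and ORM2 on chromosome 9 or between ITIH1 and ITIH3 on chromosome 3. Between ITIH3 and ITIH4 there is 1 annotated gene, and on chromosome 11 there is 1 between SAA4 and SAA2 and there are 2 between SAA2 and SAA1. These counts follow the order of start positions, so a gene counted as between may overlap its neighbours. Of the nearest 16 flanking genes with a row, 2 on each side of these 4 clusters, 11 were tested, of which 5 were higher, 3 lower and 3 not called, where 81.6% of all tested genes were called. Around the ITIH cluster, NEK4, a kinase gene, had 1.66 ± 0.0582 and 1.19 ± 0.0282 FPKM (SD, n = 3; log2 difference -0.28, adjusted p = 0.0021 by limma). At this low level the difference ranged from -0.47 to -0.10 over the alternatives, and the call was lost with quantile normalization (-0.13, adjusted p = 0.0663 by limma). SPCS1, a subunit of the signal peptidase, had 7.96 ± 0.523 and 7.81 ± 0.353 FPKM (adjusted p = 0.697 by limma). STIMATE and MUSTN1 on the other side lay under the limit of 1 FPKM.

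Other liver proteins of the acute phase were mostly lower as well. Of 20 further genes listed here as positive acute phase genes, 17 were tested, with a median log2 difference of -1.12. Of these 17, 16 were lower and 1 higher, where 44.9% of all tested genes were lower and 36.7% higher. Whether each gene on the list rises in the human acute phase was not checked. The list includes A2M (-0.90) and PROC (-1.35), both counted as lower. MBL2, counted as lower, passed the limit of 1 FPKM through its DMSO values (carfilzomib mean 0.884 FPKM). HAMP, which encodes the iron hormone hepcidin, went from 59.1 ± 3.02 to 7.23 ± 1.43 FPKM (log2 difference -2.88, adjusted p = 4.63e-09 by limma), and CPB2, a plasma carboxypeptidase that slows fibrin breakdown, from 23.0 ± 0.805 to 2.98 ± 0.480 FPKM (-2.60). The gene that was higher was SERPINA3, which encodes alpha-1-antichymotrypsin, at 3.18 ± 0.110 and 7.17 ± 0.9497 FPKM (0.96, or 0.57 at a pseudocount of 5, adjusted p = 1.32e-06 by limma). Of 10 genes of negative acute phase proteins, 8 were tested, and all 8 were lower with a median of -1.50. The decrease was at least 2-fold in 7 of them, and in 7.84% of all tested genes. ALB, TTR, TF and APOA1 are also among the hepatocyte markers above. SERPINA6, the corticosteroid-binding globulin, went from 51.3 ± 1.87 to 9.05 ± 0.449 FPKM (SD, n = 3; -2.38), and GC, the vitamin D-binding protein, from 58.8 ± 0.512 to 15.4 ± 0.583 FPKM (-1.86).

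Most transcription factors of acute phase promoters were lower. Of 16 listed, 15 were tested, with 13 lower, 2 higher and a median log2 difference of -1.07. Among all tested genes, 44.9% were lower and 36.7% higher. CEBPA, the C/EBP factor of resting hepatocytes, went from 131 ± 9.90 to 35.4 ± 1.02 FPKM (-1.86, adjusted p = 6.11e-10 by limma) and ONECUT1, also called HNF6, from 9.46 ± 0.481 to 1.01 ± 0.132 FPKM (-2.38, or -1.27 at a pseudocount of 5). The 2 that were higher were the C/EBP factors linked to inflammation, CEBPB at 119 ± 5.16 and 137.5 ± 1.42 FPKM (0.20, adjusted p = 3.04e-04 by limma) and CEBPD at 89.9 ± 0.837 and 109 ± 2.92 FPKM (SD, n = 3; 0.28, adjusted p = 1.07e-05 by limma). Quantile normalization left 0.0684 for CEBPB (adjusted p = 0.0425 by limma) and 0.17 for CEBPD (adjusted p = 9.58e-04 by limma).

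Signalling genes of interleukin-6 and interleukin-1 were called in both directions, as were all tested genes (36.7% higher and 44.9% lower). Of 27 listed, 23 were tested, with 11 higher, 5 lower, 7 not called and a median log2 difference of 0.11. SOCS3, the feedback inhibitor of gp130 signalling, went from 4.50 ± 0.448 to 24.4 ± 0.974 FPKM (2.21, adjusted p = 7.05e-10 by limma) and the receptor gene IL6R from 3.51 ± 0.184 to 15.0 ± 0.125 FPKM (1.83, adjusted p = 4.23e-10 by limma). NFKB1, an NF-kB subunit, went from 22.6 ± 0.394 to 17.9 ± 0.984 FPKM (log2 difference -0.32, adjusted p = 5.95e-05 by limma). NFKBIZ, an inhibitor-like regulator of NF-kB, had 74.9 ± 2.43 and 70.7 ± 3.09 FPKM (SD, n = 3; adjusted p = 0.0718 by limma). On the interleukin-1 and NF-kB route, TRAF6 (log2 difference 0.62), IL1R1 (0.56), RELA (0.39), IRAK1 (0.31) and MYD88 (0.19) were higher. IL1RAP was lower (-0.16) and NFKBIA was not called. STAT3, named here for its role after its values were seen, had 31.0 ± 0.446 and 32.8 ± 1.14 FPKM (SD, n = 3, adjusted p = 0.0599 by limma). Other genes of its route were called, with IL6 (log2 difference 1.05), LIF (1.76), OSMR (1.36) and JAK1 (0.50) higher. IL6ST, the gp130 gene (-0.21), and TYK2 (-0.28) were lower, and SOCS1, PIAS3, PTPN11 and LIFR were not called. IL6 passed the limit of 1 FPKM through its carfilzomib values (DMSO mean 0.937 FPKM).

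Genes of proteins that receive or process the cargo of these carriers were called in both directions, as were all tested genes (36.7% higher and 44.9% lower). Of 13 listed, 8 were tested, with 3 higher, 5 lower and a median log2 difference of -0.51. HMOX1, the inducible heme oxygenase, went from 41.9 ± 1.09 to 76.2 ± 3.25 FPKM (0.85, adjusted p = 1.64e-08 by limma) and BLVRB, a biliverdin reductase, from 77.3 ± 8.45 to 152 ± 1.69 FPKM (0.97). SCARB1, a receptor of high-density lipoprotein, went from 62.9 ± 1.59 to 25.3 ± 0.589 FPKM (-1.28) and the constitutive heme oxygenase HMOX2 from 5.23 ± 0.178 to 2.73 ± 0.270 FPKM (SD, n = 3; -0.74, or -0.40 at a pseudocount of 5). Of 12 hyaluronan partners, AMBP included, 5 were tested, with 2 higher, 2 lower, 1 not called and a median of -0.09. Across all tested genes, 81.6% were called. CD44, the hyaluronan receptor, went from 14.0 ± 0.462 to 88.1 ± 0.512 FPKM (2.57, adjusted p = 9.95e-12 by limma), and VCAN, a hyaluronan-binding proteoglycan, from 9.48 ± 0.142 to 20.7 ± 0.616 FPKM (1.05). HMMR, a hyaluronan-binding protein of the mitotic spindle, went from 17.5 ± 0.731 to 7.36 ± 0.629 FPKM (-1.15). The synthase gene HAS2 had 2.28 ± 0.176 and 2.09 ± 0.203 FPKM (SD, n = 3; adjusted p = 0.281 by limma).

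**Figure D4:**
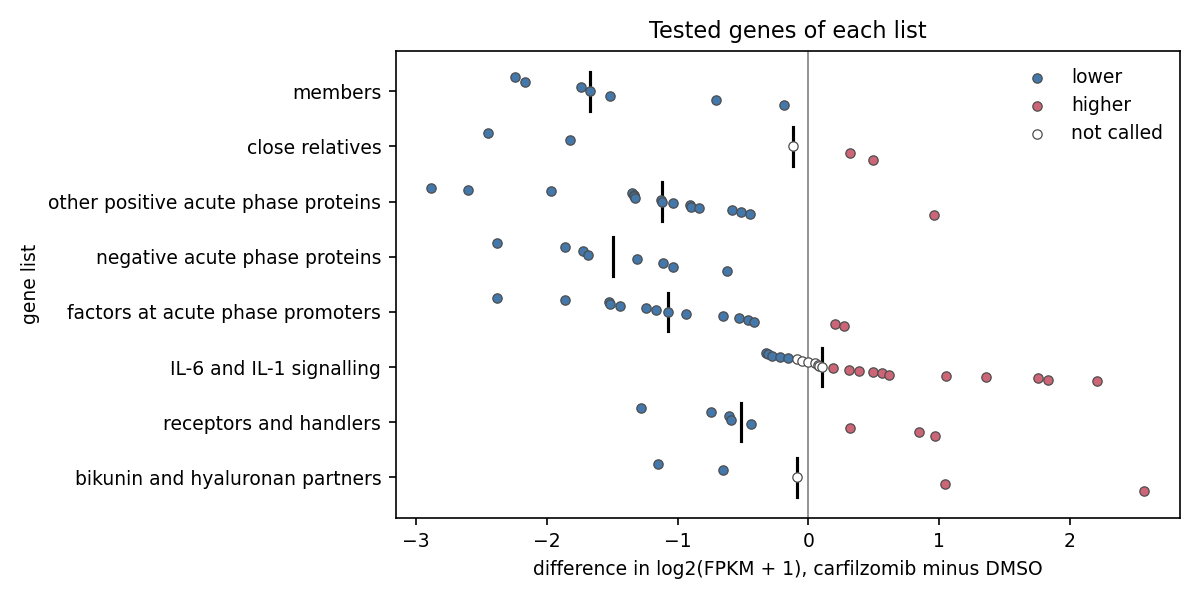
Difference in log2(FPKM + 1) between carfilzomib and DMSO for each tested gene of 8 lists, filled by limma call (adjusted p under 0.05) and with the list median as a bar. The 2 lists of acute phase proteins lie mostly left of 0, and the signalling list lies on both sides.

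Genes whose profile over the 6 libraries was among the nearest to the mean profile of the 7 tested genes were CORO2A, an actin-binding protein gene, APOB, the structural apolipoprotein of very-low-density lipoprotein, FCGRT, the neonatal Fc receptor that also salvages albumin, and NID1, a basement membrane protein gene. Their Euclidean distances on the centred log2 scale were 0.0788, 0.0868, 0.0888 and 0.0958, in that order, over the 6 libraries. Their log2 differences were -1.47, -1.50, -1.41 and -1.53. APOB went from 630 ± 23.3 to 222 ± 13.9 FPKM (SD, n = 3).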

How the data were processed

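RNA sequencing of Huh7 cells gave 6 libraries, 3 per treatment, grouped by the treatment labels. The authors deposited FPKM values per gene symbol. Per the submitters' processing notes, fastp, HISAT2, HTSeq, R 3.2.0 and DESeq2 were used, without stated roles, and the build named is GRCm39, a mouse build, while the symbols are human; no coordinates were therefore taken from the series, and promoter coordinates are RefSeq's. The sources used here state neither the strand setting of the counting nor the handling of shared reads. Per the labels' protocols, libraries came from a TruSeq stranded mRNA kit.

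Genes averaging 1 FPKM or more over the 6 libraries were tested with limma 3.58.1 in R 4.3.3 (mean-variance trend, two-sided) on log2(FPKM + 1), a scale that understates changes of low genes, with Benjamini-Hochberg adjustment over all 11153 rows. Calls are at an adjusted p under 0.05. A gene can pass the limit of 1 FPKM through 1 group alone. Examples are HPR, MBL2 and the flanking gene DHODH through DMSO, and IL6 through carfilzomib. Whole reads were recovered from ratios between libraries in 19018 of 19021 rows (99.98%, relative tolerance 1e-13) as the smallest whole numbers in those ratios. In simulated data of 11153 genes, 200 of them changed, the fit called 32%, 86%, 98% and 100% of those changed by 0.25, 0.5, 1 and 2 on the log2 scale, and 10 unchanged genes. In the real data 81.6% of genes were called, which loosens the cutoff on the unadjusted p. The simulated rates therefore do not carry over to the real fit. Ratios between genes were tested by exact permutation over 20 label assignments, 4 planned and 3 (HPR to HP, ORM2 to ORM1, SAA2 to SAA1) chosen after the values were seen, with adjustment over all 7. The genes and lists, and so the genes in the 4 planned ratios, were chosen with earlier results of these data known.

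Genes named are the listed members, all close relatives, for each further list the 2 called genes with the largest differences in each direction and the highest uncalled gene, the 5 nearest profiles and the genes flanking the ITIH cluster. Flanking genes of the other clusters were counted as well, a choice made later. Alternatives were other pseudocounts, filters, scalings, variance models, the replicate number as a block, limma-voom on recovered reads and leaving out each library. Some genes of the lists had no row and were not analysed here, and some that the naming rule picks are not reported here.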

Additional observations from a re-analysis of the deposited data

How the results depend on the processing

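Of 42 named and tested genes, 36 kept their direction and their side of the threshold in every alternative run, including HP, HPX, ORM1, LBP, CP, ITIH2, HPR, ORM2 and SAA2. The number of listed genes called lower stayed at 6 or 7, except for 9 without a filter, which adds ITIH1 and ITIH4, and none (0) was called higher. With a mean of at least 5 FPKM, CP was no longer tested. SAA1 lost its call in 4 of 17 alternatives. NEK4 lost its call with quantile normalization (adjusted p = 0.0663 by limma), HEPH gained one in 3 alternatives and NFKBIZ in 4. Reversed values, all without a call, were those of HAS2 with quantile normalization (0.0479) and of SPCS1 with median-of-ratios scaling (0.0441), quantile normalization (0.0915), rescaling to TPM (0.0126) and without DMSO replicate 1 (0.0237) or carfilzomib replicate 1 (0.00807), within a range of -0.0493 to 0.0237 with each library left out. On FPKM + 1 the log2 ratios of ITIH1 and ITIH4 to ITIH2 reversed to 1.26 and 1.51, since both genes lie under the added 1. With each library left out, the ITIH4 to ITIH2 difference ranged from -0.833 to 0.202 (positive without carfilzomib replicate 2) and that of ORM2 to ORM1 from -0.279 to 0.084 (positive without DMSO replicate 1, and at 0.00199 without carfilzomib replicate 3). Same-numbered libraries did not deviate together (correlations -0.0121, -0.00341 and 0.0126). These correlations cannot show whether same-numbered libraries were grown or handled together. With the replicate number as a block, 9054 genes were called in place of 9096, with 7 of the listed genes lower, as in the fit without it. Depth limits ITIH1 and ITIH4, with 2 to 29 reads per library.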
